A study of Mus musculus with 14 samples.

Results

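The membrane adenylate cyclases, Adcy1 to Adcy9, were followed through sorted cortical astrocytes, the cells left after that sort, and whole cortical tissue. Members were the rows of the deposited gene table whose symbol is 1 of these 9 names, and all 9 were found among 32830 genes and passed the filter on low values. All mice were of the SW strain, and the tissue was cerebral cortex on postnatal day 14, cut by hand into upper and deep layers. The sorted cells came from animals that carried Aldh1l1-GFP, a transgene in which the Aldh1l1 promoter drives green fluorescent protein in astrocytes. There were 3 libraries of upper layer astrocytes (GFP-positive cells), 3 of deep layer astrocytes, 2 each of upper and deep layer non-astrocytes (GFP-negative cells), and 2 each of upper and deep layer bulk tissue, 14 in all. The labels number the libraries within a group without saying that they came from separate animals, and do not say whether bulk tissue came from the same animals. The p-values therefore measure how far these libraries spread, and that spread may be technical.

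Membrane adenylate cyclases make cyclic AMP (cAMP) from ATP. All are stimulated by the G protein alpha subunit Gs, and they differ in what else they answer to. Adcy1, Adcy3 and Adcy8 encode forms that calcium with calmodulin can stimulate, Adcy2, Adcy4 and Adcy7 encode forms that G protein beta gamma subunits stimulate once Gs is active, Adcy5 and Adcy6 encode forms that calcium inhibits, and Adcy9 encodes a form that responds little to the drug forskolin. cAMP then acts through protein kinase A, the exchange factors encoded by Rapgef3 and Rapgef4, and cyclic nucleotide gated channels, and it is broken down by phosphodiesterases. In astrocytes, cAMP is known for its part in glycogen breakdown and in the response to noradrenaline.

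Values are normalised read counts, that is, reads per gene divided by 1 size factor per library, and levels per kilobase (kb) divide these by the length of the gene's merged exons in GENCODE M21 (GRCm38). The libraries held 18226457 to 30316765 reads in genes. The sort was checked with marker lists. The summed level of 10 astrocyte markers was 1023860 to 1507480 in astrocytes, 26630 to 34618 in non-astrocytes and 203315 to 241460 in bulk tissue. The non-astrocytes were poor in neurons as well, since 10 neuron markers summed to 936.2 to 1798 in astrocytes, 5132 to 13034 in non-astrocytes and 205462 to 326214 in bulk tissue. They held more microglia, endothelial, mural, oligodendrocyte precursor and meningeal fibroblast markers than bulk tissue. Mural markers summed to 217594 to 293660, against 8295 to 10665 in bulk tissue. Oligodendrocyte markers summed to 50939 to 145813, within the range of bulk tissue (37820 to 147904) when layers are pooled. In the upper layers they summed to 50939 to 58572, above the 37820 to 41495 of bulk tissue. In the deep layers they summed to 108404 to 145813, against 125724 to 147904. No marker of any list was at 0 in every library of a fraction. Of the 14 libraries, deep layer astrocytes replicate 2 stood apart, with a mean correlation to the other astrocyte libraries of 0.956, where the other 5 had 0.972 to 0.974.

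The upstream sequence of Adcy2, the leading cyclase of the astrocytes, is shown with those of Adcy1, the leading cyclase of bulk tissue, and Adcy4, which lay furthest below the non-astrocytes in the astrocytes. The RefSeq promoter table for GRCm38.p6 had an entry for 7 of the 9 members, and Adcy6 and Adcy8 had none. Each sequence runs 5′ to 3′ on the gene's strand and covers the 250 bases before the RefSeq start. For Adcy4 the last 23 of these lie within the GENCODE gene and are left out, so 227 are shown. Capitals mark matches, on either strand, to GGGCGG (the GC box bound by SP1 family factors) and to TTGGC (the core of NFI sites).
Adcy2, chr13:68999542-68999791, minus strand: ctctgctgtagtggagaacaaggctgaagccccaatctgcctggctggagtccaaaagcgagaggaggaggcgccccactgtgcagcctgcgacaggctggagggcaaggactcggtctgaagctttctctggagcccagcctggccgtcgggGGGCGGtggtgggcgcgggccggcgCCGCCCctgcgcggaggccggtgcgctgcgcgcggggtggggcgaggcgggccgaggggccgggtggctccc
Adcy1, chr11:7063183-7063432, plus strand: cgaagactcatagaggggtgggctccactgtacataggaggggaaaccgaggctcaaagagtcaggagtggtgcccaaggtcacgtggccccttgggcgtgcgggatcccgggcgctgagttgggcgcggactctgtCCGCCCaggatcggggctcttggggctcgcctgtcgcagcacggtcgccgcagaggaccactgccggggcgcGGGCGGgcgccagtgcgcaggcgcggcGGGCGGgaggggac
Adcy4, chr14:55784096-55784322, minus strand: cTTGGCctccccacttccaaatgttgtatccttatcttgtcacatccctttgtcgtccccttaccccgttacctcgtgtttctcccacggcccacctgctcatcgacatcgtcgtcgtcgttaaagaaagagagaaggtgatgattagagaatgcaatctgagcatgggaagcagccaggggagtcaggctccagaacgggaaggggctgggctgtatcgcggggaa
The Adcy2 window held 2 GC boxes and the Adcy1 window 3, while Adcy4 held none. GC boxes were present in 32.7% of the 32851 promoter windows in the table. The Adcy4 window held 3 matches to TTGGC, 2 of them in the bases left out, and Adcy2 and Adcy1 held none, where 41.5% of all windows had a match. Guanine and cytosine made up 73.2% of the Adcy2 window, 71.2% of the Adcy1 window and 56.0% of the Adcy4 window, beside a median of 52.4% over all windows. The full cAMP response element TGACGTCA was in no window of a member, and 1.55% of all windows had it. These matches are descriptions of the letters and say nothing about binding.

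Per kb of exon, Adcy2 stood above the other 8 cyclases in each of the 6 astrocyte libraries. It made up 74.4% to 87.5% of the summed level of the 9 genes there, against 5.42% to 6.82% in non-astrocytes and 20.6% to 27.0% in bulk tissue. In astrocytes its level per kb averaged 925 ± 129 (SD, n = 6). Adcy6 and Adcy9 came next at 88.9 ± 25.5 and 87.4 ± 28.1 per kb, and their ranges overlapped. Below them Adcy3, Adcy7, Adcy8, Adcy1, Adcy5 and Adcy4 followed in that order, each with a range that overlapped the next, down to 1.47 ± 0.963 per kb for Adcy4. This order is that of means over both layers, and the place of Adcy8 differed by layer. It averaged 15.9 per kb in deep layer astrocytes, above Adcy7 (14.5), and 2.11 in upper layer astrocytes, below Adcy5 (3.42).

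The order was another in the other fractions. In non-astrocytes Adcy6 led at 263 ± 50.1 per kb (SD, n = 4), followed by Adcy7 at 180 ± 24.0, and these 2 ranges did not overlap. Adcy4, Adcy1, Adcy9, Adcy5 and Adcy2 lay between 51.7 and 102 per kb on average, with ranges that overlapped from one to the next, and Adcy8 was lowest at 12.8 ± 3.58. In bulk tissue Adcy1 led at 1364 ± 239 per kb and held 46.9% to 56.3% of the sum. Adcy2 followed at 631.8 ± 46.0, then Adcy5 at 198 ± 35.7 and Adcy9 at 177 ± 21.3, whose ranges overlapped, and Adcy4 was lowest at 12.9 ± 5.30.

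Grouped by regulation, the beta gamma stimulated forms held 76.4% to 88.9% of the summed level per kb in astrocytes, 37.4% to 42.7% in non-astrocytes and 21.9% to 27.97% in bulk tissue. Different members filled that class. It was nearly all Adcy2 in astrocytes and mostly Adcy7 and Adcy4 in non-astrocytes. The calcium and calmodulin stimulated forms held 2.11% to 4.96% in astrocytes, 12.04% to 14.4% in non-astrocytes and 52.4% to 60.6% in bulk tissue, where Adcy1 was most of it. The calcium inhibited forms held 4.95% to 10.4% in astrocytes, 33.7% to 41.4% in non-astrocytes and 10.96% to 11.97% in bulk tissue. The summed level of the 9 genes was 1017 to 1376 per kb in astrocytes, 739 to 978 in non-astrocytes and 2349 to 2865 in bulk tissue, so the 3 fractions did not overlap.

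**Figure D1:**
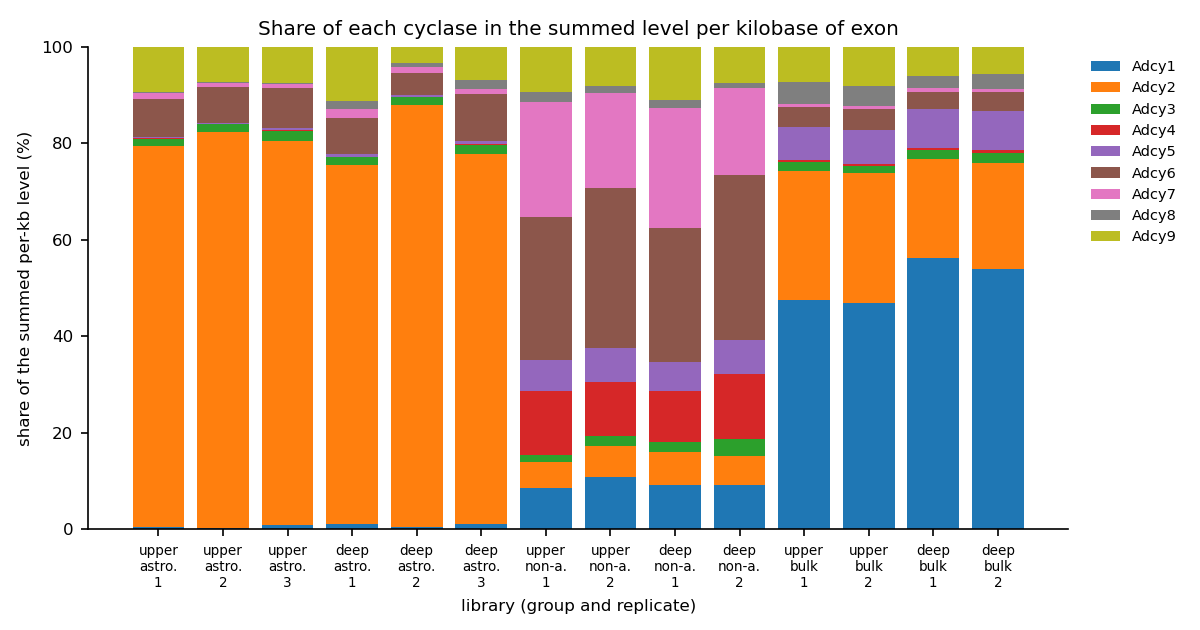
Share of each cyclase (%, vertical axis) in the summed level per kilobase of exon, in each of the 14 libraries (horizontal axis, by group and replicate). Adcy2 fills 74.4% to 87.5% of the astrocyte bars, Adcy6 and Adcy7 lead in the non-astrocyte bars, and Adcy1 holds 46.9% to 56.3% of the bulk tissue bars.

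Astrocytes were compared with non-astrocytes over both layers, weighed equally, to ask which cyclases the sorted cells carry. Differences are log2 differences from limma on log2(value + 1), with their standard error (SE), and a gene was called at a Benjamini-Hochberg adjusted p below 0.05 over 22575 genes. Of the 9 members, 1 rose (Adcy2), 6 fell (Adcy1, Adcy4, Adcy5, Adcy6, Adcy7 and Adcy8) and 2 were not called (Adcy3 and Adcy9). Over all genes tested 66.3% were called, 29.6% as higher and 36.8% as lower, so being called at all sets these genes apart little, and the size and direction of each difference carry the description.

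Adcy2 (chromosome 13, 68620043 to 68999541) had 3609, 4748 and 4286 in upper layer astrocytes and 3195, 3749 and 3789 in deep layer astrocytes, against 189 and 260 in upper and 212 and 209 in deep layer non-astrocytes. Every astrocyte library lay far above every non-astrocyte library. The rise was 4.15 on the log2 scale (SE 0.12), or 17.8-fold (limma adjusted p = 4.50e-13). In bulk tissue Adcy2 had 2639 and 2933 in the upper layers and 2479 and 2590 in the deep layers. The lowest astrocyte library was above the highest bulk library, and the rise over bulk tissue was 0.54 (SE 0.12, limma adjusted p = 0.00117). For bulk tissue, fewer cells of a type and less RNA per cell cannot be told apart. The sorted cells were freed with papain and sorted, and bulk tissue was not sorted. This handling cannot be told apart from cell content in any comparison with bulk tissue. Of all other genes, Sorl1, a sorting receptor gene, had the pattern most like that of Adcy2 over the 14 libraries (Pearson r of log2 values 0.997), followed by Gabbr2, which encodes a subunit of the Gi-coupled GABA-B receptor (0.995), and Fndc5 (0.994). These correlations, and those below, are descriptions over libraries of 3 fractions.

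The other beta gamma stimulated forms went the other way. Adcy4 (chromosome 14, 55769057 to 55784095) had 8.59, 3.27 and 14.3 in upper layer astrocytes and 2.36, 4.26 and 8.46 in deep layer astrocytes, which are 2 to 13 reads a library. In non-astrocytes it had 516 and 518 in the upper and 371 and 505 in the deep layers. The fractions were far apart, with a fall of 6.11 (SE 0.36, limma adjusted p = 7.91e-10), the largest of the 9. Bulk tissue held 49.8 and 35.1 in the upper and 62.3 and 93.3 in the deep layers, between the other fractions. The genes most like Adcy4 were Eng (0.994), a TGF-beta co-receptor gene of endothelium, Ctgf (0.990) and St8sia4 (0.989). A list of 7 endothelial markers summed to 584.4 to 1112 in astrocytes, 30299 to 44143 in non-astrocytes and 3723 to 4682 in bulk tissue, the same order as Adcy4. The microglia, mural, oligodendrocyte precursor and meningeal fibroblast lists had this order too, so it is not particular to endothelial markers. The part of any of these cells in the Adcy4 level was not tested.

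Adcy7 (chromosome 8, 88272403 to 88329962) had 89.8, 79.6 and 63.9 in upper and 129, 87.9 and 76.1 in deep layer astrocytes, against 1331 and 1307 in upper and 1241 and 978 in deep layer non-astrocytes. Bulk tissue had 89.4 and 109 in the upper and 168 and 120 in the deep layers, so that bulk and astrocyte libraries overlapped while non-astrocytes stood above both. Adcy7 was 13.9-fold lower in astrocytes than in non-astrocytes (limma adjusted p = 8.15e-11). Relative to bulk tissue it fell by 0.46 (limma adjusted p = 0.0389), a call that ended under edgeR (adjusted p = 0.0614) and under scaling to library totals (0.287). It also ended without replicate 2 or 3 of the upper layer astrocytes, replicate 2 or 3 of the deep layer astrocytes, replicate 2 of the upper layer bulk tissue or replicate 1 of the deep layer bulk tissue, with adjusted p up to 0.177. Its closest genes were Adap2 (0.993), Malt1 (0.991) and Arhgef6 (0.990). The 7 microglia markers summed to 951.5 to 2506 in astrocytes, 124756 to 180246 in non-astrocytes and 5803 to 6909 in bulk tissue. The endothelial, mural, oligodendrocyte precursor and meningeal fibroblast lists were also highest in non-astrocytes. The part of any of these cells in the Adcy7 level was not tested.

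**Figure D2:**
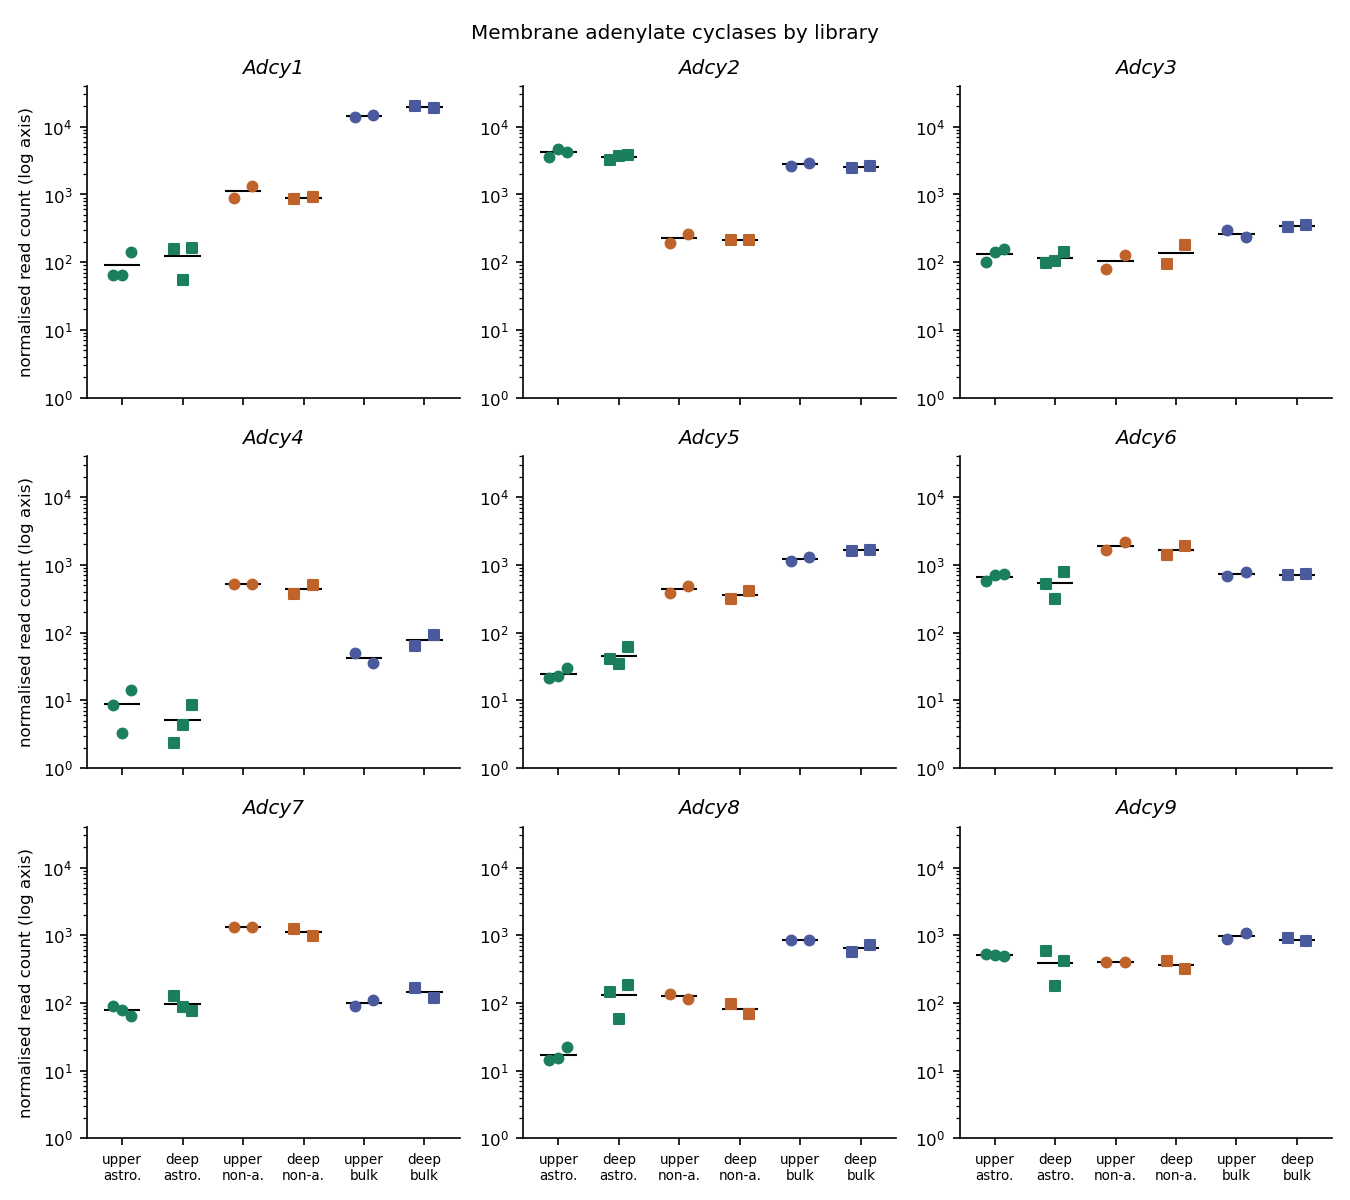
Normalised read count (vertical log axis) of the 9 cyclases in the 14 libraries by group (horizontal axis), with circles for upper and squares for deep layers and a bar at each group mean; astro. stands for astrocytes and non-a. for non-astrocytes. Adcy2 is high in astrocytes and bulk tissue, Adcy4, Adcy6 and Adcy7 are highest in non-astrocytes, Adcy1 and Adcy5 are highest in bulk tissue, and Adcy8 is lowest in upper layer astrocytes.

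Among the calcium inhibited forms, Adcy6 (chromosome 15, 98589973 to 98610076) had 581, 701 and 732 in upper and 518, 309 and 775 in deep layer astrocytes, against 1655 and 2191 in upper and 1391 and 1885 in deep layer non-astrocytes. The groups did not overlap, and Adcy6 fell by 1.60 in astrocytes (SE 0.20, limma adjusted p = 4.47e-06). Bulk tissue had 687 and 780 in the upper and 699 and 724 in the deep layers, among the higher astrocyte values, and the difference of -0.32 from bulk tissue was not called (SE 0.20, limma adjusted p = 0.178). Without deep layer astrocytes replicate 3 that difference was -0.48 and called (limma adjusted p = 0.0212). With every library kept and the replicate number as a block, it was called as well (limma adjusted p = 0.0289). Whether it is called thus depends on 1 library and on the model. Adcy5 (chromosome 16, 35154877 to 35305738) was low in astrocytes, at 21.01, 22.9 and 29.8 in the upper and 41.3, 34.0 and 60.3 in the deep layers. Non-astrocytes had 379 and 495 in the upper and 314 and 411 in the deep layers, and bulk tissue had 1122 and 1304 in the upper and 1626 and 1651 in the deep layers. No fraction overlapped another. Adcy5 fell by 3.55 relative to non-astrocytes (SE 0.19, limma adjusted p = 1.83e-10) and by 5.39 relative to bulk tissue (SE 0.19, limma adjusted p = 1.62e-12). The genes most like Adcy6 were Rnpepl1 (0.982), Serpinf1 (0.980) and Colgalt1 (0.975), and those most like Adcy5 were Kcng1 (0.994), Cobl (0.994) and Rnf112 (0.993).

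Among the calcium and calmodulin stimulated forms, Adcy1 (chromosome 11, 7063489 to 7178506) had 64.0, 65.4 and 142 in upper and 155, 53.9 and 161 in deep layer astrocytes. Non-astrocytes had 879 and 1334 in the upper and 848 and 926 in the deep layers, and bulk tissue had 13979 and 15122 in the upper and 20191 and 19011 in the deep layers. The 3 fractions were well apart, and bulk tissue stood highest. Adcy1 fell by 3.33 in astrocytes relative to non-astrocytes (SE 0.29, limma adjusted p = 1.50e-07) and by 7.44 relative to bulk tissue (SE 0.29, limma adjusted p = 2.31e-11), the largest difference of any member from bulk tissue. The summed neuron markers followed the same order of fractions. Between layers of bulk tissue they summed to 249624 to 326214 in the upper and 205462 to 225326 in the deep layers, while Adcy1 was higher in the deep layers, without a call. In astrocytes the Adcy1 mean was also higher in the deep layers (123 against 90.5), and the neuron sums were higher in the upper layers. In non-astrocytes the Adcy1 mean and the neuron sums were both higher in the upper layers. The part of neurons in the Adcy1 level was not tested. The genes most like Adcy1 were Fam163b (0.996), Tulp4 (0.995) and Arhgdig (0.995).

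Adcy3 (chromosome 12, 4133103 to 4213525) had 100, 141 and 159 in upper and 95.6, 105 and 143 in deep layer astrocytes, against 78.3 and 127 in upper and 93.9 and 179 in deep layer non-astrocytes. These ranges overlapped, and the difference of 0.09 was not called (SE 0.23, limma adjusted p = 0.731). In bulk tissue Adcy3 had 295 and 234 in the upper and 332 and 358 in the deep layers, above every sorted library, and it fell by 1.30 in astrocytes relative to bulk tissue (SE 0.23, limma adjusted p = 0.000114). Exons of Cenpo on the opposite strand cover 22.1% of the Adcy3 exon length, and since the sources used here do not say whether counting used strand, the Adcy3 level is uncertain. Antisense genes likewise cover 4.49% of the Adcy2 exon length (Gm35161) and 8.92% of that of Adcy6 (Gm29331), so the same limit holds there over smaller parts. Adcy9 (chromosome 16, 4287529 to 4420498) had 530, 517 and 496 in upper and 589, 179 and 417 in deep layer astrocytes, against 403 and 408 in upper and 423 and 315 in deep layer non-astrocytes. The low value of 179 was that of deep layer astrocytes replicate 2, the library that stood apart. With it, the difference from non-astrocytes was 0.15 and not called (SE 0.24, limma adjusted p = 0.608). Without it the difference was 0.39 and called (limma adjusted p = 0.0192). Bulk tissue had 893 and 1080 in the upper and 895 and 820 in the deep layers, and Adcy9 fell by 1.11 in astrocytes relative to bulk tissue (SE 0.24, limma adjusted p = 0.000891). The genes most like Adcy3 were Sox12 (0.975), Ppp6r2 (0.970) and Aes (0.968), and those most like Adcy9 were Lrrc20 (0.956), Tex50 (0.954) and Mak (0.952), weaker likenesses than those of Adcy2.

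Relative to bulk tissue, astrocytes thus had 1 member called higher and 7 called lower. In that comparison 64.8% of all genes were called, 28.8% as higher and 36.1% as lower. Non-astrocytes relative to bulk tissue had all 9 called, 3 higher and 6 lower, where 61.6% of all genes were called, 30.5% as higher and 31.1% as lower. The 3 that rose in non-astrocytes were Adcy7 by 3.34 (SE 0.20), Adcy4 by 3.04 (SE 0.40) and Adcy6 by 1.28 (SE 0.22). The 6 that fell had differences of -4.11 (Adcy1), -3.61 (Adcy2), -2.87 (Adcy8), -1.83 (Adcy5), -1.39 (Adcy3) and -1.25 (Adcy9), with limma adjusted p of 0.000742 or less. These comparisons share libraries with each other, so they are not independent.

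**Figure D3:**
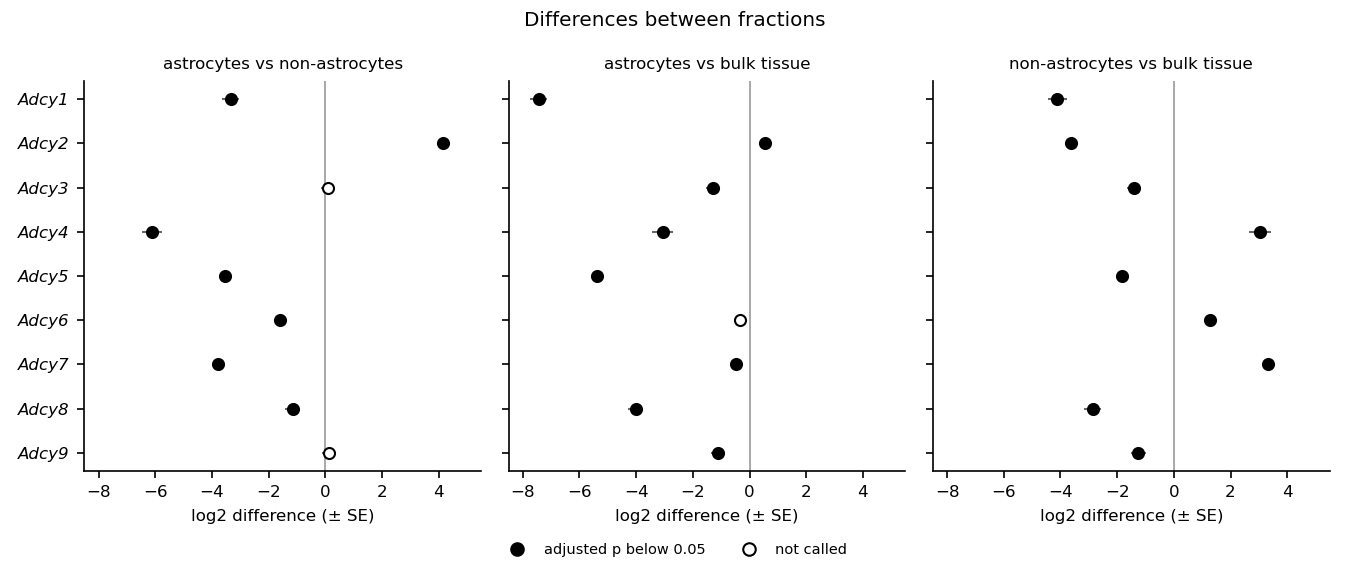
Log2 differences (horizontal axis) of the 9 cyclases between fractions with both layers weighed equally, as points with the standard error, which is often smaller than the point. Filled points have an adjusted p below 0.05; Adcy2 alone lies above 0 for astrocytes against non-astrocytes among the called members, at 4.15.

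Upper and deep layers were compared within each fraction, the question of layer differences that the dissection serves. In astrocytes 1 of the 9 members was called, Adcy8, where 0.0797% of all genes were (18 of 22575), 0.0399% as higher and 0.0399% as lower. Adcy8 (chromosome 15, 64697084 to 64922296) had 14.3, 15.3 and 22.04 in upper layer astrocytes, against 146, 58.2 and 184 in deep layer astrocytes. These are 15, 14 and 20 reads in the upper and 124, 41 and 174 reads in the deep layer libraries. The groups did not overlap, and the lowest deep library, replicate 2, was the one that stood apart. Adcy8 fell by 2.71 in upper layer astrocytes (SE 0.35), or 6.55-fold (limma adjusted p = 0.00462). Without deep layer astrocytes replicate 2 it fell by 3.20 (limma adjusted p = 9.14e-05). edgeR's quasi-likelihood test on the recovered reads gave an adjusted p of 0.00273, while a limma fit of the 6 astrocyte libraries alone gave 0.286 and one without variance trend and robust moderation gave 0.0532.

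In the other fractions the higher libraries were those of the upper layers, without a call. Non-astrocytes had 137 and 114 in the upper and 96.3 and 68.2 in the deep layers, a difference of 0.62 that was not called (SE 0.42, limma adjusted p = 1). Bulk tissue had 858 and 860 in the upper and 573 and 719 in the deep layers, a difference of 0.42 that was not called (SE 0.42, limma adjusted p = 1). In both fractions each upper library was above each deep library, an order opposite to that in astrocytes. With 2 libraries a group such an order carries little weight. In bulk tissue Adcy1, Adcy2, Adcy3, Adcy4, Adcy5 and Adcy7 were also fully apart between layers without a call. In non-astrocytes so were Adcy4 and Adcy7. The share of all genes that were fully apart between layers in this way was not worked out. These separations are therefore not read as a trait of the members. The layer difference of astrocytes minus that of bulk tissue was -3.13 (SE 0.55, limma adjusted p = 0.0348), where 0.137% of all genes were called, 0.0576% as lower. That call ended when any library but deep layer astrocytes replicate 2 was left out, with adjusted p up to 0.296, and it was 0.00245 without that replicate. The layer difference of astrocytes minus that of non-astrocytes was -3.33 (SE 0.55) and was not called by limma (adjusted p = 0.190), although it was without deep layer astrocytes replicate 2 (0.00153).

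Over both layers Adcy8 fell by 1.15 in astrocytes relative to non-astrocytes (SE 0.27, limma adjusted p = 0.00170). Split by layer, a step added after the data were seen, the difference was -2.82 in the upper layers (limma adjusted p = 1.86e-05) and 0.52 in the deep layers, where it was not called (0.270). The gap between these 2 values is the difference of -3.33 given above, which limma did not call. Markers of other cells were read beside this result. Of the 8 marker lists, the oligodendrocyte list was the only one with a member called between upper and deep layer astrocytes. In it 1 of 6 fell and 5 of 6 lay below 0 (median -1.16), and its sum was 3613 to 4854 in upper and 4765 to 5970 in deep layer astrocytes. In non-astrocytes the same sum was 50939 to 58572 in the upper and 108404 to 145813 in the deep layers. The neuron markers summed to 1356 to 1798 in upper and 936.2 to 1195 in deep layer astrocytes. The part of these cells in the Adcy8 difference was not tested. The genes most like Adcy8 over all libraries were Mageb16 (0.934), Miat (0.933) and Mas1 (0.933).

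The other 8 members differed between upper and deep layer astrocytes by -0.83 to 0.64 and were not called. The largest was Adcy5, whose 3 upper values of 21.01 to 29.8 lay below its 3 deep values of 34.0 to 60.3, a difference of -0.83 (SE 0.23, limma adjusted p = 0.268). With the replicate number as a block within each fraction, which pairs the astrocyte libraries, it was called (limma adjusted p = 0.0477). Adcy2 differed by 0.23 (SE 0.15, limma adjusted p = 0.588). None of the 9 was called between layers in non-astrocytes, where 0.00443% of all genes were called, or in bulk tissue, where 0.456% were, 0.159% as higher and 0.297% as lower. With 2 libraries in each of those groups, the lowest and highest layer differences of a member were -0.37 and 0.62 in non-astrocytes, and -0.85 and 0.42 in bulk tissue.

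**Figure D4:**
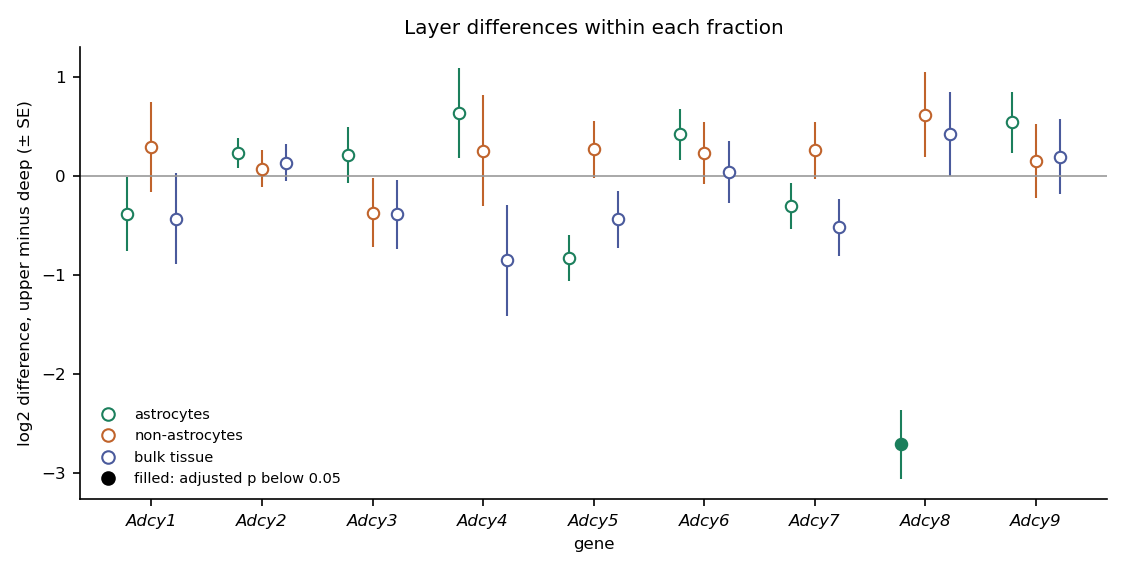
Log2 differences between upper and deep layers (vertical axis, upper minus deep, with the standard error) of the 9 cyclases (horizontal axis) in astrocytes, non-astrocytes and bulk tissue. The one filled point, Adcy8 in astrocytes at -2.71, is the only member with an adjusted p below 0.05 within a fraction.

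The rest of the cAMP pathway was described by 11 lists in the comparison of astrocytes with non-astrocytes, beside 66.3% of all genes called and a median of -0.08 over all genes. Of 17 tested genes for receptors that couple to Gs, 6 rose and 9 fell, with a median of -2.22. Adora2b, an adenosine receptor gene, rose by 3.99 (1754 ± 345 in astrocytes, 110 ± 30.9 in non-astrocytes, SD, n = 6 and 4). Adcyap1r1, the gene of the PACAP receptor, rose by 3.37 (17835 ± 4488 in astrocytes, 1739 ± 520 in non-astrocytes), and Gpr3, a constitutively active receptor gene, rose by 3.57. Calcrl fell by 3.89, and Vipr1 fell too, with 0 to 4.41 in the astrocyte libraries (3 of 6 at 0) and 63.1 to 164 in the non-astrocyte libraries, too low in astrocytes for an exact fold. Exons of Cd164l2 overlap those of Gpr3, so the Gpr3 level is uncertain. Receptors that lower cAMP through Gi were as divided, with 8 of 23 up and 12 down (median -1.36). S1pr1, a sphingosine phosphate receptor gene, rose by 4.34 (46427 ± 8340 in astrocytes, 2266 ± 278 in non-astrocytes), Gabbr2 rose by 4.06 and the glutamate receptor gene Grm3 by 4.03. Lpar1 fell by 2.94, with a difference of -2.03 in the upper and -3.86 in the deep layers alone. Sstr1 and Grm2 fell as well. Sstr1 had 0 to 2.36 in astrocytes and 33.8 to 79.1 in non-astrocytes, and Grm2 had 0 to 8.82 in astrocytes and 30.01 to 134 in non-astrocytes, so neither allows an exact fold.

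Of 7 G protein alpha subunit genes, 1 rose and 3 fell (median -0.17). Gnao1, of the Go subunit, rose by 3.34 (29814 ± 4355 in astrocytes, 2926 ± 284 in non-astrocytes). Gnai2 fell by 1.43, Gnas, the Gs gene, fell by 0.83 and Gnal, its olfactory form, fell by 0.59. Gnas shares exons with Gm20721 and the antisense gene Nespas, so its level is uncertain, and Gnal and Gnao1 overlap other genes as well. Among 12 beta and gamma subunit genes 2 rose and 8 fell (median -1.11), where Gng12 rose by 1.08 and Gnb5 rose by 0.94, while Gng2 fell by 4.90, Gng11 fell by 4.25 and Gng3 fell by 4.13. Exons of Gng2 and Gng3 overlap those of Gm48283 and Bscl2, so both levels are uncertain. Of 17 tested calcium, calmodulin and kinase inputs to cyclases 1 rose, Camk2g by 2.59, and 13 fell (median -1.26), among them Rgs2, an inhibitor of several cyclases, by 4.31 (236 ± 46.9 in astrocytes, 4644 ± 423 in non-astrocytes). The kinase genes Camk2b and Prkcb were also among them, as Camk2b fell by 2.83 and Prkcb fell by 2.78.

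Downstream of cAMP, no protein kinase A gene rose, 5 of 9 fell and 4 were not called (median -0.89). Prkar1b and Prkar2b, of regulatory subunits that neurons are known to express, had differences of -4.82 and -3.09, and Pkig, of an inhibitor of the kinase, fell by 1.68. A-kinase anchoring proteins were split, 3 up and 3 down of 8 (median 0.25), where Akap6 rose by 1.99 and Akap7 rose by 1.31, while Akap12 fell by 5.92, Akap13 fell by 2.66 and Akap5 fell by 0.87. Akap11 also rose, by 0.39 with a limma adjusted p of 0.0458, and its call ended under 19 of the alternatives. Of 9 other cAMP effector genes 2 rose and 5 fell (median -0.98). Rapgef3, which encodes the exchange factor EPAC1, rose by 2.64 (2570 ± 515 in astrocytes, 406 ± 51.3 in non-astrocytes), and Rapgef4, which encodes EPAC2, fell by 2.05 (186 ± 61.4 in astrocytes, 743 ± 79.6 in non-astrocytes). Both share exons with antisense genes, so both levels are uncertain. Exons of other genes also cover 17.12% of the exon length of Hcn3, 9.6% of Grm2, 8.95% of Prkar1b and 7.96% of Gnb5. Smaller parts are shared by Akap7, Cap1, Cap2, Ep300, Gng12 and Pde7a, and the same limit holds for all of these. Among the channel genes Hcn3 rose by 0.77 (limma adjusted p = 0.0142, and 0.0575 without deep layer non-astrocytes replicate 1), while Hcn4 fell, with 0 in 5 of 6 astrocyte libraries and 2.86 in the other, against 12.7 to 19.7 in non-astrocytes. Of 16 phosphodiesterase genes 3 rose and 7 fell (median -0.05). Pde7b rose by 1.29, Pde7a by 0.73 and Pde4b by 0.69, whereas Pde3b fell by 6.16 (118 ± 32.9 in astrocytes, 8212 ± 912 in non-astrocytes) and Pde1b fell by 2.12. Pde2a fell by 5.61, and a second entry of that name covers nearly all its exons, so its level is uncertain. Of 8 genes of the CREB family and its coactivators, 1 rose (Crtc3, by 0.73) and 4 fell (median -0.38), as Creb1 fell by 1.45, Ep300 fell by 0.73 and Crtc2 fell by 0.69. Of the soluble cyclase gene Adcy10 and 2 genes of cyclase-associated proteins, Cap2 rose 2.83-fold and Cap1 fell by 2.30. Apart from Akap11 and Hcn3, the genes named here with a direction had limma adjusted p of 0.00441 or less. In the deep layers alone the calls of Gnas (limma adjusted p = 0.0956), Akap5 (0.0863) and Pde4b (0.0546) ended as well.

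**Figure D5:**
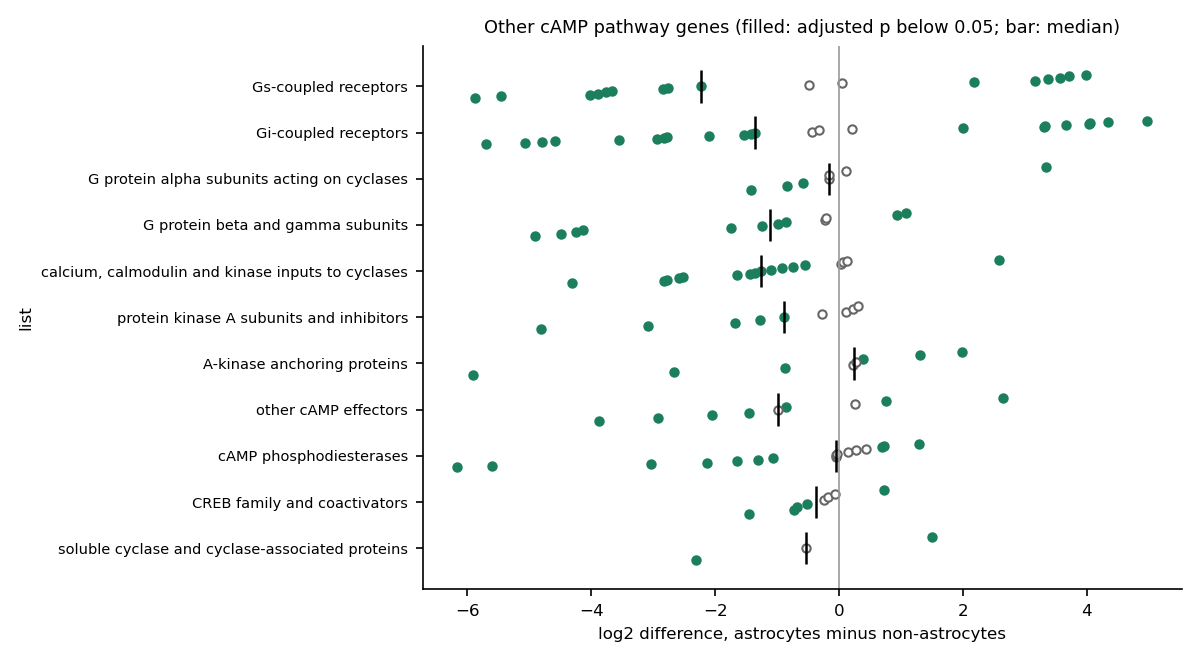
Log2 differences (horizontal axis, astrocytes minus non-astrocytes) of the tested genes in 11 lists of the cAMP pathway (vertical axis), 1 point per gene, with filled points for an adjusted p below 0.05 and a bar at each list's median. Both receptor lists have called genes on either side of 0, with medians of -2.22 for Gs-coupled and -1.36 for Gi-coupled receptors.

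No gene of the 11 lists was called between upper and deep layers in astrocytes or non-astrocytes. In bulk tissue 5 of the 129 genes tested were, or 3.88%, beside 0.456% of all genes. Prkca, a protein kinase C gene, rose 2.29-fold in the upper layers (6739 and 7484, against 2823 and 3406 in the deep layers), Ppp3ca, a calcineurin gene, rose by 0.91, and Pde7b rose by 1.37 (1507 and 1675, against 598 and 628). Pde1a, of a phosphodiesterase that calcium and calmodulin activate, fell by 1.58 in the upper layers (1651 and 1756, against 5519 and 4722), and Pde4a fell by 0.89. Their limma adjusted p were 0.0448 or less, but the groups hold 2 libraries each. The calls of Prkca, Ppp3ca, Pde1a and Pde4a ended when any of the 4 bulk libraries was left out, with adjusted p up to 0.258 for Prkca, 0.490 for Ppp3ca, 0.290 for Pde1a and 0.403 for Pde4a. That of Pde7b ended without either deep replicate or without upper replicate 2, with adjusted p up to 0.108.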

How the data were processed

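RNA was measured by RNA-seq in 14 libraries. Papain was used to free the cells, which were then sorted by GFP, per the labels' protocols. The cDNA was made with a NuGEN single primer isothermal amplification kit for single-end sequencing. Several libraries shared a lane, and the lane of each is not given, so the part of the lane was not tested. The tools named in the submitters' processing notes are HTSeq 0.6.1p1, TopHat2 2.0.11, DESeq2 and CASAVA, and the build is GRCm38. What the authors deposited is a signal per gene, its counts divided by 1 size factor per library (0.705 to 1.303). Within 1e-06, 100% of values came out as whole reads, which were recovered. Groups follow the sample titles; the cell type label of the upper layer astrocytes and non-astrocytes names bulk tissue instead.

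Genes with a value of 10 in at least 2 libraries were kept (22575). limma 3.58.1 in R 4.3.3 was fitted to log2(value + 1) with 6 group means, a variance trend and robust moderation (8 residual degrees of freedom), and p-values were Benjamini-Hochberg adjusted over all kept genes. The scale understates changes of genes with low values. edgeR 4.0.16 and DESeq2 1.42.0 were run on the recovered reads, next to other pseudocounts, filters and scalings, a replicate block and fits without each library. Upper layers alone and deep layers alone were added after seeing the data. The procedure was tested on simulated data. Same-numbered upper and deep layer astrocyte libraries deviated together (correlations of 0.203, 0.149 and 0.171). The replicate block within fraction took their numbers to pair them, while the fit reported in the results did not use this pairing. Gene positions come from GENCODE M21, which matched 32007 of 32830 identifiers. Of each list, up to 3 called genes per direction with the smallest p are named, plus those called between layers, and for each member the 3 genes with the highest correlation. Some genes that this rule names are not reported here. Ric8a is not analysed here, and Drd5, Ptger2, Htr4, Drd4, Gnb3 and Popdc2 fell below the filter. The members and lists were chosen with earlier results of these data known.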

Additional observations from a re-analysis of the deposited data

Results flagged for a closer look

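Adcy1 in upper layer non-astrocytes replicate 2, at 1334, lay apart from the other 3 non-astrocyte libraries, the nearest of which had 926. Adcy4 in deep layer non-astrocytes replicate 1, at 371, lay below the other 3, the nearest of which had 505. In all, 27 sets of a gene and a fraction were looked at, and chance sets apart about 1 set in 20. The layer difference (upper minus deep) differed between astrocytes and bulk tissue by -3.13 for Adcy8, as given above. It differed by 2.13 for Lpar1, a lysophosphatidic acid receptor gene, which had 100, 122 and 176 in upper against 63.7, 53.9 and 77.2 in deep layer astrocytes, and 340 and 381 in upper against 876 and 712 in deep layer bulk tissue (limma adjusted p = 0.0290, and 0.0180 to 0.252 with 1 library left out). It differed by -1.43 for Prkca (adjusted p = 0.0334, and 0.0237 to 0.296 with 1 library left out) and by -1.42 for Pde7b (0.0334, and 0.0240 to 0.252).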

How the results depend on the processing

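In the comparisons between fractions, 7 to 8 members were called for astrocytes against non-astrocytes with each library left out in turn (8 without deep layer astrocytes replicate 2, 6 in deep layers alone), 7 to 8 for astrocytes against bulk tissue and 9 for non-astrocytes against bulk tissue. Signs turned for Adcy3 against non-astrocytes (-0.0921 scaled to library totals, -0.0616 with the replicate block, -0.20 in deep layers alone, -0.14 to 0.32 with a library left out), Adcy9 (-0.0395 scaled to library totals, -0.0488 in deep layers alone, -0.0386 to 0.39 with a library left out) and Adcy8 (0.52 in deep layers alone); in no case was the turned value called, and the cause was not tested. Adcy6 against bulk tissue was also called with the replicate block (adjusted p = 0.0289), and Adcy7 against bulk tissue was not (0.116). Scaling to library totals moved the median of all genes by -0.18, 0.18 and 0.36 in the 3 fraction comparisons, and the calls were then 5183 higher and 9252 lower (6677 and 8301 as reported) for astrocytes against non-astrocytes, 7509 and 6984 (6498 and 8139) for astrocytes against bulk tissue, and 9015 and 5051 (6885 and 7030) for non-astrocytes against bulk tissue.

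Layer calls moved most. In astrocytes, members called were 0 without trend and robust moderation, 0 with the groups compared alone and 2 with the replicate block within fraction, and 1 with each library left out; genes called were 18, and 142 by DESeq2, 4 without trend, 1 with the groups compared alone, 89 with the block, 188 with the block within fraction and 12 to 56 with a library left out. In non-astrocytes genes called were 1 (871 at an unadjusted p under 0.05), and 2 with pseudocount 5, 13 unfiltered, 7 by edgeR, 139 by DESeq2, 11 without trend, 0 with the groups compared alone, 3 with the block, 33 with the block within fraction and 0 to 12 with a library left out. In bulk tissue they were 103, and 231 with pseudocount 5, 170 by edgeR, 428 by DESeq2, 1093 with the groups compared alone, 168 with the block, 261 with the block within fraction and 11 to 216 with a library left out. No member was called in these 2 fractions under any of them.

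For the layer difference of astrocytes minus non-astrocytes, members called were 1 by DESeq2 and 1 with the replicate block (Adcy8 in both), and 0 to 1 with a library left out; genes called were 1, and 59 by DESeq2, 0 scaled to library totals, 2 without trend, 0 with the groups compared alone, 3 with the block, 4 with the block within fraction and 0 to 2 with a library left out. For astrocytes minus bulk tissue, members called were 0 scaled to library totals, 0 without trend, 0 with the groups compared alone and 0 to 1 with a library left out; genes called were 31, and 74 with pseudocount 5, 50 by edgeR, 200 by DESeq2, 52 with the block, 112 with the block within fraction and 0 to 72 with a library left out. Upper and deep libraries with the same number correlated at 0.436 in non-astrocytes and 0.0937 in bulk tissue, with 2 pairs each. With 2 libraries in a group the deviations mirror each other, so these values cannot show whether the number pairs the libraries. The replicate block within fraction used the number in every fraction. Adcy4 in astrocytes rests on 2 to 13 reads a library, which limits its difference.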
